A study of Mus musculus with 2 samples.

Results

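Glycolysis and hypoxia genes were followed in blood myeloid cells of C57BL/6 mice taken 24 h after transient proximal MCAo, a blockage of the middle cerebral artery that models ischaemic stroke. The set held 31 genes, chosen as members of these pathways, and all 31 were present among the 11691 genes of the deposited table. One library came from young mice (2 to 4 months) and one from aged mice (18 to 24 months). Both groups had undergone the occlusion, so stroke against no stroke is not compared here. Cells had been stained and sorted as CD11b+ Ly6G- and CD11b+ Ly6G+ fractions, and the sources used here do not say how many mice were pooled or how the fractions were mixed.

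Glycolysis splits glucose into pyruvate, with transporters for entry, kinases that trap and commit the sugar, and a shared lower segment that yields ATP. Lactate dehydrogenase turns pyruvate into lactate, which leaves through monocarboxylate transporters. HIF-1α, encoded by Hif1a, is the oxygen-regulated subunit of the transcription factor that raises many of these genes when oxygen is short or when myeloid cells are activated. Neutrophils hold few mitochondria and are known to rely largely on glycolysis for energy, and glycolysis also feeds inflammatory cytokine production in monocytes.

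The table gave raw counts of unique molecular identifiers (UMIs), each standing for 1 captured transcript, and a cell label from the authors. After removal of likely doublets 1822 young and 3820 aged cells were used, with median depths of 2022 and 2219 UMIs per cell in the deposited libraries, and 12 cell barcodes occurred in both. The labels Neutrophil (1133 young and 2628 aged cells) and Monocyte (540 and 932) held most cells, followed by cDC, conventional dendritic cells (52 and 104), NK (70 and 58), Fol B-cell (14 and 41) and Mast cell (0 and 42). All 11 neutrophil markers had a UMI in the neutrophil label and all 10 monocyte markers in the monocyte label. Each list was also seen in full in the other of these labels, so presence alone does not separate them. Neutrophil markers summed to 335357 and 423935 CPM (counts per 1000000) in young and aged neutrophils. They also reached a summed 24133 and 34561 CPM in young and aged monocytes, and 11366 and 30082 CPM in NK cells. Monocyte markers summed to 23850 and 19762 CPM in young and aged monocytes and to 3808 and 2729 CPM in neutrophils. Erythroid genes summed to 999.7 CPM in young and 272 CPM in aged neutrophils, and to 728 and 475 CPM in monocytes. The part of this RNA in the values below was not tested. With 1 library per age there is no replicate. No p-value is given, and every interval (95%, exact) covers counting error alone, not the spread between mice.

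UMIs were summed over the cells of a label in a library and expressed as CPM of that sum. With at least 20 UMIs over both libraries, 29 of the 31 genes were measured in neutrophils (not Eno3 or Vegfa), 30 in monocytes (not Vegfa), 20 in cDC, 12 in NK, 13 in B cells, 8 in the mast cell label and 3 in the small Eryth-Neutro label. The 31 genes took 0.487% of the UMIs of young and 0.486% of aged neutrophils. In monocytes they took 0.604% (young) and 0.737% (aged), in cDC 0.483% and 0.549%, and in NK cells 0.319% and 0.327%. As a share of UMIs, the aged library was thus higher in monocytes and level in neutrophils. That contrast depends on the scale. With TMM, a scaling that centres most genes, the median log2 aged over young ratio was 0.27 in neutrophils and 0.28 in monocytes.

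**Figure D1:**
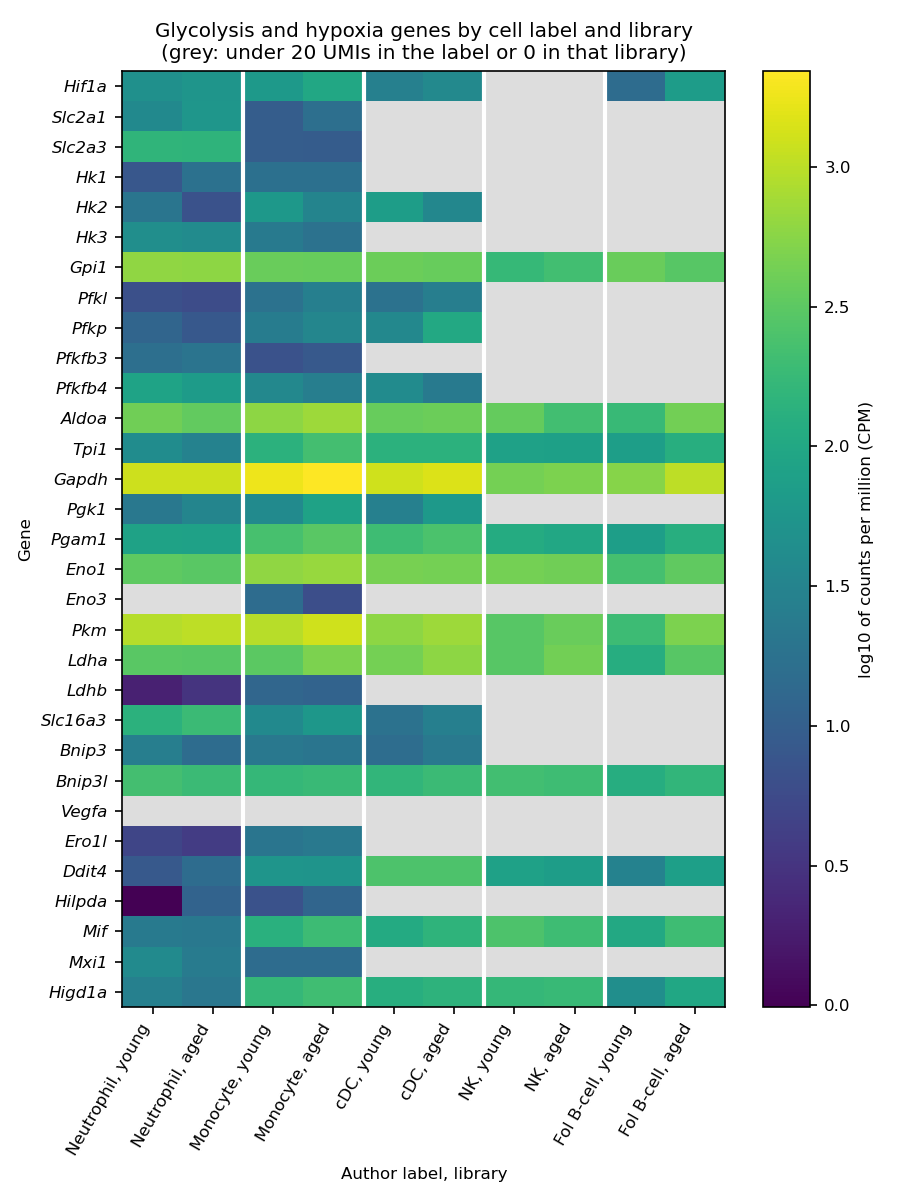
Level of each of the 31 genes (rows) as log10 of CPM in 5 author labels, young and aged library side by side; grey cells had under 20 UMIs in the label or none in that library. Gapdh and Pkm are the brightest rows in neutrophils and monocytes, and the Slc2a3 row is bright only in the neutrophil columns among the labels where it passed the minimum.

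The genes with the highest UMI levels were much alike in neutrophils and monocytes; no correction for transcript length was made, since a 3′ kit tags each transcript at its end. Gapdh, the glyceraldehyde phosphate dehydrogenase, stood at 1205 CPM in young and 1236 CPM in aged neutrophils, and at 1832 and 2200 CPM in monocytes. Pkm, the pyruvate kinase of the last step, stood at 922 and 1013 CPM in neutrophils and 966 and 1264 CPM in monocytes. Gpi1, which turns glucose phosphate into fructose phosphate, followed in neutrophils with 616 and 596 CPM, ahead of the aldolase Aldoa with 411 and 349 CPM and the enolase Eno1 with 325 and 305 CPM. In monocytes Eno1 had 614 and 676 CPM, Aldoa 588 and 710 CPM, and Gpi1 383 and 364 CPM. Ldha, the main lactate dehydrogenase subunit, exceeded Gpi1 in aged monocytes (477 CPM) and not in young ones (320 CPM). Vegfa, the endothelial growth factor and a well-known HIF target, was near the limit of detection everywhere, with 4 and 5 UMIs in all young and aged neutrophils and 2 and 2 in monocytes.

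The comparison of the cell types asked which steps of the pathway carry more message in neutrophils than in monocytes. Of 30 genes compared, 5 were at least 2-fold higher in neutrophils in both libraries (background 7.13% of 9554 genes) and 11 at least 2-fold lower (background 50.4%). The 5 were both glucose transporters, both PFKFB enzymes that set the phosphofructokinase activator, and the lactate exporter. The median log2 ratio of the 30 was -0.72 (young library) and -0.85 (aged library), beside -1.12 and -1.58 over all genes compared, so the median gene lay lower in neutrophils on the CPM scale. Scaling therefore bears on every count here: TMM, a scaling that centres most genes, gave 9 genes higher and 3 lower, and UMIs per cell without scaling gave 1 higher and 23 lower.

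Slc2a3, the high-affinity glucose transporter GLUT3, set neutrophils apart most. It stood at 152 CPM in young and 149 CPM in aged neutrophils against 9.66 and 9.37 CPM in monocytes, ratios of 15.7 (11.1 to 23.0) and 15.9 (12.3 to 21.1). It remained the 1 gene that was at least 2-fold higher even per cell, at 0.272 and 0.311 UMIs per neutrophil against 0.0648 and 0.0644 per monocyte. With each cell thinned to 500 UMIs, 7.59% of young and 7.15% of aged neutrophils held a Slc2a3 UMI, against 0.556% and 0.751% of monocytes and 3.57% and 3.03% of NK and B cells together. Without thinning, the shares were 22.8% and 26.4% in neutrophils (median 1629 and 1900 UMIs), 6.30% and 6.01% in monocytes (6606 and 6402 UMIs), and 5.95% and 8.08% in NK and B cells (2078 and 2654 UMIs). Slc2a1, the broadly used transporter GLUT1, had 38.5 and 57.3 CPM in neutrophils and 9.66 and 16.4 CPM in monocytes, ratios of 3.98 (2.64 to 6.12) and 3.5 (2.79 to 4.40). GLUT3 made up 79.8% (75.4 to 83.7) and 72.3% (69.6 to 74.9) of the UMIs of both transporters in young and aged neutrophils, and 50% (37.8 to 62.2) and 36.4% (29.0 to 44.2) in monocytes. The intervals of the cell types did not overlap in either library. How much of the 9.66 and 9.37 CPM of Slc2a3 in monocytes is neutrophil RNA was not tested, and the ratios and monocyte shares above hold that limit.

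Slc16a3 encodes MCT4, the transporter that exports lactate. It stood at 142 and 191 CPM in young and aged neutrophils and at 38.6 and 57.8 CPM in monocytes, ratios of 3.67 (2.98 to 4.52) and 3.31 (2.94 to 3.73). Per cell the cell types were level, with 0.253 and 0.398 UMIs in neutrophils and 0.259 and 0.397 in monocytes. Pfkfb4 had 86.4 and 67.5 CPM in neutrophils against 35.9 and 26.8 CPM in monocytes, ratios of 2.41 (1.91 to 3.04) and 2.51 (2.09 to 3.03). Pfkfb3 had 16.3 and 19.3 CPM against 6.90 and 8.43 CPM, ratios of 2.36 (1.36 to 4.14) and 2.29 (1.64 to 3.25). The direction of both PFKFB genes was the opposite per cell without scaling, with ratios of 0.642 and 0.763 for Pfkfb4 and 0.629 and 0.696 for Pfkfb3.

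The 11 lower genes ran from the hexokinase Hk2 and the phosphofructokinase genes Pfkl and Pfkp to mid-pathway enzymes and several hypoxia targets. Tpi1, the triose phosphate isomerase, had 41.4 and 29.7 CPM in young and aged neutrophils against 141 and 219 CPM in monocytes, ratios of 0.293 (0.230 to 0.370) and 0.136 (0.115 to 0.160). Pgam1, the phosphoglycerate mutase, had 82.9 and 81.2 CPM against 237 and 303 CPM. Mif, the macrophage migration inhibitory factor, had 23.2 and 21.3 CPM against 130.0 and 196 CPM, ratios of 0.178 (0.129 to 0.241) and 0.109 (0.0892 to 0.132). Higd1a, a mitochondrial protein induced in hypoxia, had 28.6 and 21.0 CPM against 170.0 and 207 CPM, ratios of 0.168 (0.126 to 0.221) and 0.101 (0.0830 to 0.123). Mif, Higd1a and Eno3 stayed at least 2-fold lower in neutrophils under each scaling tried. Eno3 rested on only 6 young and 4 aged neutrophil UMIs, 2.96 and 0.730 CPM against 14.9 and 6.24 CPM in monocytes. It was compared because it reached 20 UMIs in monocytes. Under TMM the 8 others no longer passed 2-fold in both libraries, although in 1 library Tpi1 (0.340, aged), Ldhb (0.317, young), Ddit4 (0.308, young) and Ero1l (0.429, aged) still did. The young Pfkp ratio passed 1 (1.06) when ratios were centred on all genes.

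Of the other lower genes, Ldhb, the minor lactate dehydrogenase subunit, had 1.97 and 3.10 CPM in neutrophils and 12.4 and 11.4 CPM in monocytes. Ero1l, an oxidase of the endoplasmic reticulum, had 4.93 and 3.83 CPM against 19.6 and 22.3 CPM. Ddit4, an mTORC1 inhibitor induced by stress and hypoxia, had 8.39 and 15 CPM against 54.4 and 54.0 CPM. Ddit4 was higher still in cDC, at 259 (211 to 315) and 254 (219 to 294) CPM, with intervals apart from those of monocytes in both libraries. The remaining 14 genes were within 2-fold in at least 1 library. Hk3 was just inside, at 1.94-fold and 2.28-fold higher in neutrophils. Mxi1, a MYC antagonist, was 2.62-fold and 1.61-fold higher. For Hif1a, Aldoa, Gapdh, Eno1, Pkm and Ldha the ratio was below 1 in CPM in both libraries and above 1 in both with TMM scaling, so no direction is given for them.

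**Figure D2:**
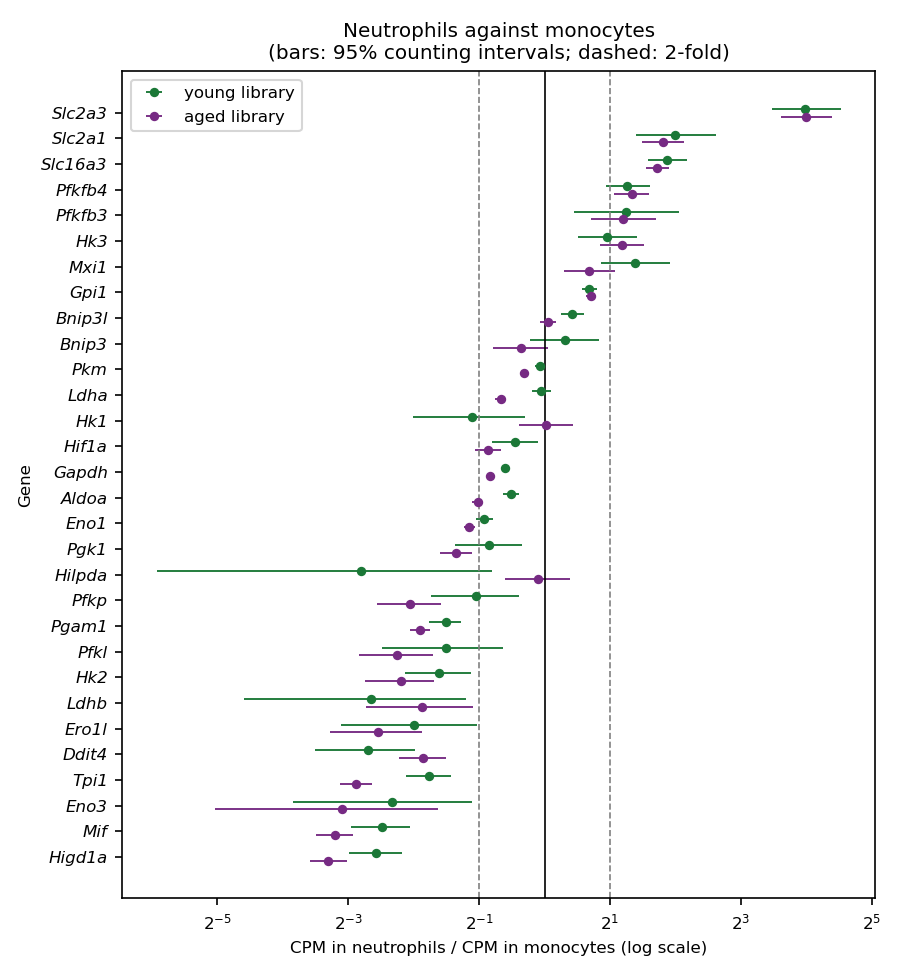
CPM in neutrophils divided by CPM in monocytes (log axis) for the 30 genes compared, ordered by the mean of both libraries; points are the young and aged library, bars 95% counting intervals, and dashed lines mark 2-fold. Slc2a3 lies farthest to the right at 15.7 and 15.9, and Higd1a and Mif lie far to the left in both libraries.

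Hexokinase isoenzymes catalyse the same first step and differ in where they sit: HK1 and HK2 can bind mitochondria, and HK3 is the form typical of myeloid cells. Hk3 led in neutrophils and Hk2 in monocytes. In neutrophils Hk3 took 61.4% (52.9 to 69.3) of 145 young hexokinase UMIs and 62.5% (57.3 to 67.6) of 355 aged ones. In monocytes Hk3 took 22.6% (18.4 to 27.2) of 363 and 26.7% (22.6 to 31.2) of 427 UMIs, and Hk2 took 60.3% (55.1 to 65.4) and 47.8% (43.0 to 52.6). In cDC Hk2 took 90.3% (74.2 to 98.0) of 31 and 58.1% (42.1 to 73.0) of 43 UMIs, and no Hk3 UMI was seen in the young cDC (0 of 31, which allows a share of up to 11.2% by the Clopper-Pearson interval). Shares within a family do not depend on how totals are scaled.

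The Hk1 and Hk2 shares in neutrophils were in opposite order in the libraries. Of the hexokinase UMIs Hk2 had 27.6% (20.5 to 35.6) in young and 10.7% (7.69 to 14.4) in aged neutrophils, while Hk1 had 11.0% (6.44 to 17.3) and 26.8% (22.2 to 31.7). Both pairs of intervals lay apart. The libraries also differed in the clusters that filled the label, described further on: 886 of 1133 young neutrophils were in the cluster led by Prr5l, and 1274 and 1106 of 2628 aged ones in those led by Camp and Ccl4. In the Prr5l cluster the Hk2 share was 29.9% (21.4 to 39.5) in young and 14.3% (4.03 to 32.7) in aged cells, and the Hk1 share 12.1% (6.63 to 19.9) and 17.9% (6.06 to 36.9). In the Camp cluster Hk2 had 9.52% (1.17 to 30.4) and 11.0% (6.88 to 16.5), and Hk1 14.3% (3.05 to 36.3) and 25.4% (19.2 to 32.4). The values were in opposite order in the Prr5l cluster too, while Hk1 was above Hk2 in both libraries in the Camp cluster. The aged order in the Prr5l cluster rested on 5 Hk1 and 4 Hk2 UMIs, and the young order in the Camp cluster on 3 and 2, so neither order is settled. In the Ccl4 cluster Hk1 and Hk2 had 0 and 6 UMIs in young cells and 44 and 14 in aged ones. The intervals of the libraries overlapped within the Prr5l cluster, with 28 aged hexokinase UMIs, and the Camp cluster, with 21 young ones. Whether the opposite order holds within clusters was not tested. In monocytes the Hk1 share was 17.1% (13.4 to 21.4) and 25.5% (21.5 to 29.9), and the Hk2 share was lower in the aged library, again with intervals apart for Hk2. A higher share was not a higher level there. Monocyte Hk1 had 17.1 and 17.0 CPM, an aged over young ratio of 0.994 (0.721 to 1.38), and Hk3 had 22.6 and 17.8 CPM, a ratio of 0.786 (0.587 to 1.06). An antisense gene of Hk1 (Hk1os, 26 young and 63 aged UMIs over all cells) is listed separately, and whether counting used strand is not given in the sources used here, so the Hk1 values hold that uncertainty.

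**Figure D3:**
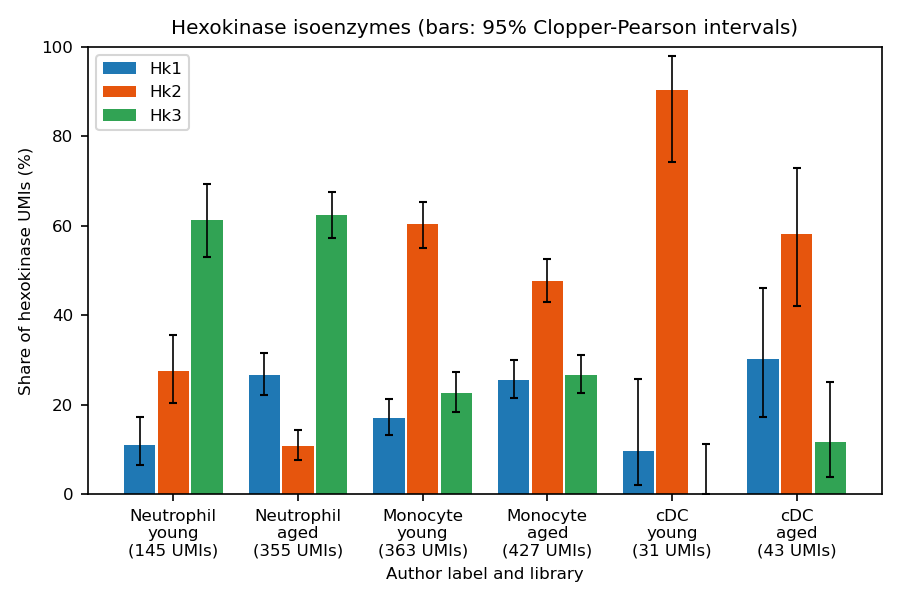
Share of hexokinase UMIs (%) held by Hk1, Hk2 and Hk3 in neutrophils, monocytes and cDC of the young and aged library, with 95% Clopper-Pearson intervals and the number of hexokinase UMIs under each group. Hk3 holds 61.4% and 62.5% in neutrophils, while Hk2 is the tallest bar in monocytes and cDC.

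For phosphofructokinase, the committed step, UMIs of the liver-type (Pfkl) and platelet-type (Pfkp) subunit genes were compared. The split did not separate neutrophils from monocytes. The muscle-type gene Pfkm was left out of these shares, and the make-up of the enzyme was not tested. Pfkp took 65.8% (48.6 to 80.4) of 38 young and 58.4% (46.6 to 69.6) of 77 aged UMIs in neutrophils. In monocytes it took 58.2% (50.1 to 66.0) of 158 and 55.2% (50.1 to 60.1) of 397 UMIs, with intervals that overlapped those of neutrophils. In aged cDC the share was 79.8% (70.2 to 87.4) of 94 UMIs, above the aged monocyte interval, and in young cDC it was 66.7% (43.0 to 85.4) of 21 UMIs. Ldha made up 99.4% and 99.0% of lactate dehydrogenase UMIs in neutrophils and 96.3% and 97.7% in monocytes. Eno1 made up 99.1% and 99.8% of enolase UMIs in neutrophils and 97.6% and 99.1% in monocytes. A near-identical copy of Eno1, Eno1b, has 139 young and 219 aged UMIs of its own in the table, so a part of Eno1 reads may be divided between both.

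The comparison of ages asked which of these genes differ between the aged and young libraries in the same cell type. In neutrophils 29 genes could be compared: 5 passed 1.5-fold with the higher level in aged cells (background 5.78% of 6522 genes), 4 with the lower level (background 24.8%) and 20 in between. The median log2 ratio was -0.05 for the 29 genes and -0.26 for all genes. In monocytes 30 could be compared: 7 were higher (background 7.44% of 9325 genes), 2 lower (background 11.2%) and 21 in between, with a median log2 ratio of 0.27 beside -0.00 over all genes. In cDC 20 were compared, 3 of them higher (background 13.9% of 4790 genes) and 2 lower (background 10.6%). With TMM scaling the neutrophil medians moved to 0.27 for these genes and 0.06 for all genes, and the lower genes fell from 4 to 1 (Hk2), while the monocyte medians were 0.28 and 0.01.

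Over whole labels, Pgk1 was higher and Hk2 lower in the aged library in neutrophils, monocytes and cDC. Values within clusters, given further on, did not all follow this. Pgk1 encodes phosphoglycerate kinase, the first ATP-yielding step, and lies on chromosome X (GRCm38, 106187100 to 106203699, forward strand). It had 21.7 CPM in young and 32.7 CPM in aged neutrophils, a ratio of 1.5 (1.08 to 2.14). In monocytes it had 38.9 and 83.3 CPM, a ratio of 2.14 (1.78 to 2.60), and in cDC 28.2 and 63.9 CPM, a ratio of 2.27 (1.16 to 4.85). The monocyte ratio ran from 2.06 to 3.56 over the alternatives tried; the neutrophil ratio sat at the threshold and fell just under it, to 1.47 at the lowest, in 3 of 12. A retrocopy, Pgk1-rs7, has 10 and 22 UMIs of its own, so some reads may be shared.

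Hk2 lies on chromosome 6 (GRCm38, 82725025 to 82774454, reverse strand). It had 19.7 CPM in young and 6.93 CPM in aged neutrophils, a ratio of 0.351 (0.219 to 0.562) from 40 and 38 UMIs. In monocytes it had 60.4 and 31.8 CPM, a ratio of 0.527 (0.433 to 0.641), and in cDC 71.8 and 34.7 CPM, a ratio of 0.484 (0.271 to 0.861). The neutrophil ratio stayed between 0.314 and 0.436 over 12 alternatives. The monocyte ratio passed 1.5-fold in all of 13 but the thinning to 500 UMIs per cell, where it was 0.773.

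Both genes are textbook HIF targets and were in opposite order between the libraries, so the 250 bases before their start sites (RefSeq, GRCm38.p6) are shown, none of which lies in an annotated exon. Capitals mark the core of the hypoxia response element, ACGTG or GCGTG, on either strand.
Pgk1, chrX:106186850-106187099, forward strand: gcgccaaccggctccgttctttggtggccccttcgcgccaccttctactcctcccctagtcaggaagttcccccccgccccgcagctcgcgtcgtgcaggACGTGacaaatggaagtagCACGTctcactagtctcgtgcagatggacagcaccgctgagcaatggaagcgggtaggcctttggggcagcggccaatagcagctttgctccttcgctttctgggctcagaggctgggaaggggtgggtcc
Hk2, chr6:82774455-82774704, reverse strand: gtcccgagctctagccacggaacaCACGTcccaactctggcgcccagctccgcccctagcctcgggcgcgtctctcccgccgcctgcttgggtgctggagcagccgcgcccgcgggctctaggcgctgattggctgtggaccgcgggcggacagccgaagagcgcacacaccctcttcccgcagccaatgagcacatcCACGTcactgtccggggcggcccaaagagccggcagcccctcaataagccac
Each window held 2 copies, starting 150 and 131 bases before the Pgk1 start and 226 and 52 bases before the Hk2 start. RefSeq windows were matched for 29 of the 31 genes, by symbol or synonym; Slc2a3 and Bnip3l were not matched. At least 1 start site with the core was found for 26 of the 29 (89.7%), against 41.5% of all 27025 genes with a window. The 31 genes were chosen as members of these pathways, while the background held all genes with a window, expressed here or not, so the shares are not of like sets. The core is short, a gene with several start sites has more chances to hold it, and a match is a description of letters, not of binding.

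Hilpda, which encodes a lipid droplet-associated protein and is induced by HIF, had 2 UMIs in young and 63 in aged neutrophils, 0.987 and 11.5 CPM. The ratio was 11.6 with a counting interval of 3.09 to 98.3, since it rests on 2 young UMIs. In monocytes Hilpda had 6.90 and 12.3 CPM, a ratio of 1.79 (1.13 to 2.93). Plin2, a lipid droplet coat protein from the list of further hypoxia genes, had 211 and 231 CPM in neutrophils, a ratio of 1.10 (0.983 to 1.23), and 293 and 457 CPM in monocytes, a ratio of 1.56 (1.46 to 1.68).

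Among the other genes that were higher in aged neutrophils, Hk1 had 7.89 and 17.3 CPM, a ratio of 2.20 (1.28 to 4.00). Ddit4 had 8.39 and 15 CPM, a ratio of 1.78 (1.05 to 3.21). Ldhb rested on 4 and 17 UMIs and its interval, 0.513 to 6.42, held 1. Hk1 and Ddit4 stayed at least 1.5-fold higher under all 12 alternatives, and so did Hilpda except that it had under 20 UMIs, too few for a call, with cells thinned to 500 UMIs. Slc2a1 was just under the threshold, with 38.5 and 57.3 CPM and a ratio of 1.49 (1.16 to 1.93), and passed it with TMM scaling.

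Besides Hk2, the lower genes in aged neutrophils were Bnip3, Mxi1 and Pfkp. Bnip3, a mitophagy receptor, had 26.6 and 15.1 CPM, a ratio of 0.568 (0.399 to 0.816). Mxi1 had 39.0 and 24.1 CPM, a ratio of 0.618 (0.464 to 0.827). Pfkp had 12.3 and 8.21 CPM, a ratio of 0.666 (0.399 to 1.13), and its interval held 1. All 3 came within 1.5-fold when totals were scaled by TMM, centred on all genes or taken without the 20 most abundant genes. For several abundant genes the neutrophil interval held 1: Gapdh had a ratio of 1.02 (0.978 to 1.07), Pgam1 0.979 (0.818 to 1.18), Ldha 0.969 (0.883 to 1.06) and Gpi1 0.968 (0.907 to 1.03), and Slc2a3 0.982 (0.860 to 1.12). Among the enzymes within 1.5-fold it did not hold 1 for Tpi1 at 0.718 (0.548 to 0.945), Pfkfb4 at 0.782 (0.651 to 0.941), Aldoa at 0.848 (0.781 to 0.921) or Pkm at 1.10 (1.04 to 1.16). TMM factors of 1.11 for young and 0.897 for aged neutrophils raise each of these ratios on that scale.

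In monocytes Hif1a itself was higher in the aged library, with 64.0 and 100.2 CPM, a ratio of 1.57 (1.34 to 1.83). In neutrophils it had 46.9 and 55.3 CPM, a ratio of 1.18 (0.934 to 1.5). Slc2a1 had 9.66 and 16.4 CPM in monocytes, a ratio of 1.70 (1.15 to 2.56), while Slc2a3 had 9.66 and 9.37 CPM, a ratio of 0.970 (0.629 to 1.52). Tpi1 had 141 and 219 CPM, a ratio of 1.55 (1.40 to 1.71). Mif had 130.0 and 196 CPM, a ratio of 1.51 (1.36 to 1.68), and Pfkl had 18.2 and 27.8 CPM, a ratio of 1.53 (1.14 to 2.06). Ldha and Slc16a3, the lactate enzyme and its exporter, were just under the threshold: Ldha had 320 and 477 CPM, a ratio of 1.49 (1.39 to 1.60), and Slc16a3 had 38.6 and 57.8 CPM, a ratio of 1.49 (1.23 to 1.83). Mif and Tpi1 sat at the threshold and fell as low as 1.45 and 1.49, Hif1a fell to 1.38 and Pfkl went below 1 (0.773) with cells thinned to 500 UMIs, and Pgk1 kept at least 1.5-fold under all 13 alternatives. Slc2a1 and Hilpda kept that ratio too, but had under 20 UMIs, too few for a call, with cells thinned to 500 UMIs.

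**Figure D4:**
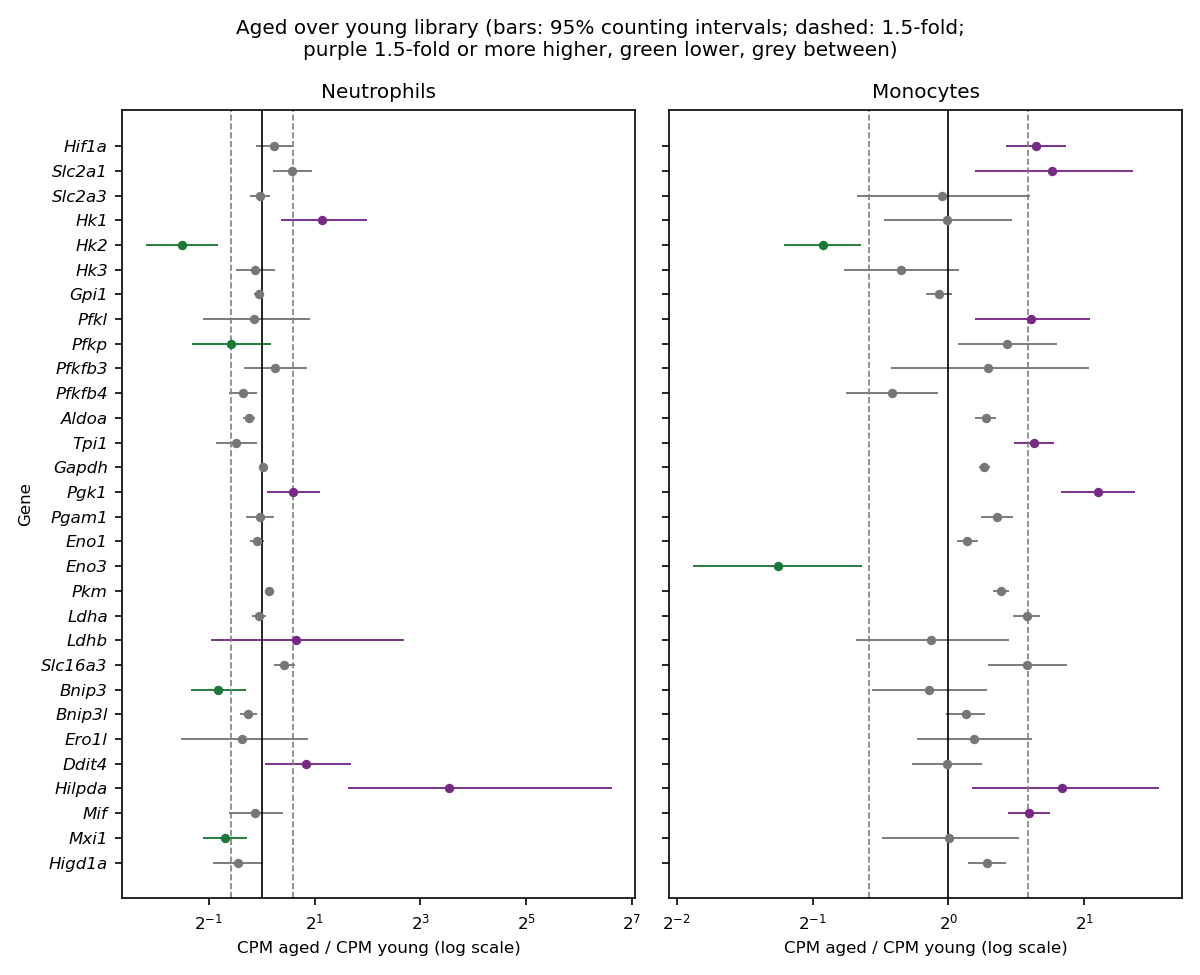
CPM in the aged divided by CPM in the young library (log axis) in neutrophils (left) and monocytes (right) for genes with at least 20 UMIs in the label; bars are 95% counting intervals and dashed lines mark 1.5-fold. Hilpda lies farthest right in neutrophils at 11.6 with a wide interval, and Hk2 lies to the left in both panels at 0.351 and 0.527.

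In cDC, besides Pgk1 and Hk2, Pfkp had 35.9 and 104 CPM, a ratio of 2.90 (1.63 to 5.57). Pfkfb4, with 41.0 and 23.6 CPM, and Slc16a3, with 17.9 and 27.8 CPM, had intervals that held 1. In NK cells the 12 measured genes included Aldoa at 361 and 215 CPM, a ratio of 0.596 (0.368 to 0.949), while the intervals of the 11 others held 1. The young B cells numbered 14, so their ratios are not given.

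Cells were also clustered within each label, on variable genes that excluded the 31 genes, ribosomal protein genes and mitochondrial genes. Of 9 clusters 4 held under 30 cells from the young or the aged library, all of them in monocytes: the cluster led by Hba-a1 and ribosomal pseudogenes held 394 young and 3 aged cells, that led by Elane, Ms4a3 and Spp1 7 and 430, that led by Ecm1, Tgm2 and Fcgr4 10 and 254, and that led by Cdc20 and Ccnb1 12 and 108. Those clusters and the age of the mice cannot be told apart. Clusters with at least 30 cells from both libraries were the one led by MHC class II and C1qa (52 young and 104 aged cells) and the one led by Cd300e, Cd36 and Ace (65 and 33) in monocytes. In neutrophils all 3 passed this minimum with unequal sizes: the clusters led by Ltf, Camp and Ngp (154 and 1274), by Gm5483, Ccl4 and Cxcl3 (93 and 1106) and by Prr5l and Rpl13-ps3 (886 and 248).

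Eno3, the muscle-type enolase, was found mainly in the monocyte cluster led by Cd300e, Cd36 and Ace, where it had 100.3 CPM in young and 154 CPM (88.0 to 250.1) in aged cells. The other clusters had at most 13.6 CPM. In that cluster Eno3 made up 28.6% of the aged and 18.1% of the young enolase UMIs, against 0.914% and 2.37% in all monocytes. Over all monocytes Eno3 had 14.9 and 6.24 CPM, an aged over young ratio of 0.419 (0.271 to 0.642), and the cluster held 65 of 540 young and 33 of 932 aged monocytes. Within the cluster the ratio was 1.54 (0.804 to 2.80), and over all monocytes without it the ratio was 0.942. Leaving the cluster out was chosen after seeing the data. Whether its size accounts for the difference of the whole label was not tested.

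Of the shared monocyte clusters, Hk2 was lower in the aged library in the C1qa cluster, with 92.2 and 33.3 CPM, a ratio of 0.362 (0.211 to 0.613). In the Cd300e cluster it had 97.9 and 48.1 CPM, a ratio of 0.492 (0.151 to 1.25). That interval held 1, from 40 young and 5 aged UMIs. In neutrophil clusters the Hk2 ratio was 0.183 (0.0661 to 0.581) in the Ccl4 cluster and 0.399 (0.102 to 1.12) in the Prr5l cluster. In the Camp cluster it was 1.16 (0.282 to 10.2) from 2 young UMIs. Pgk1 had a ratio of 2.20 (1.18 to 4.02) in the Prr5l cluster, 1.75 (0.574 to 8.71) in the Ccl4 cluster and 0.890 (0.486 to 1.78) in the Camp cluster, so its higher level was not seen in every cluster. The 10 leading genes of the C1qa cluster held the cDC markers H2-Aa, H2-Ab1 and Cd74 and no other of that list, beside C1qa and C1qc. No cluster of the monocyte label had a gene of the monocyte marker list among its 10 leading genes, so that absence sets none apart. The C1qa cluster is compared as a cluster, and whether its cells are monocytes was not tested. In it Pgk1 had a ratio of 1.31 (0.693 to 2.62), Hif1a 2.20 (1.22 to 4.26) and Ldha 1.63 (1.29 to 2.09). In the Cd300e cluster Hif1a had 0.684 (0.172 to 2.00), and Pgk1 had 11 young and 1 aged UMI, too few for a ratio. Gapdh had 1.42 (1.26 to 1.60) in the C1qa cluster and 0.741 (0.586 to 0.929) in the Cd300e cluster, where the median depth was 5658 UMIs in young and 2145 UMIs in aged cells.

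**Figure D5:**
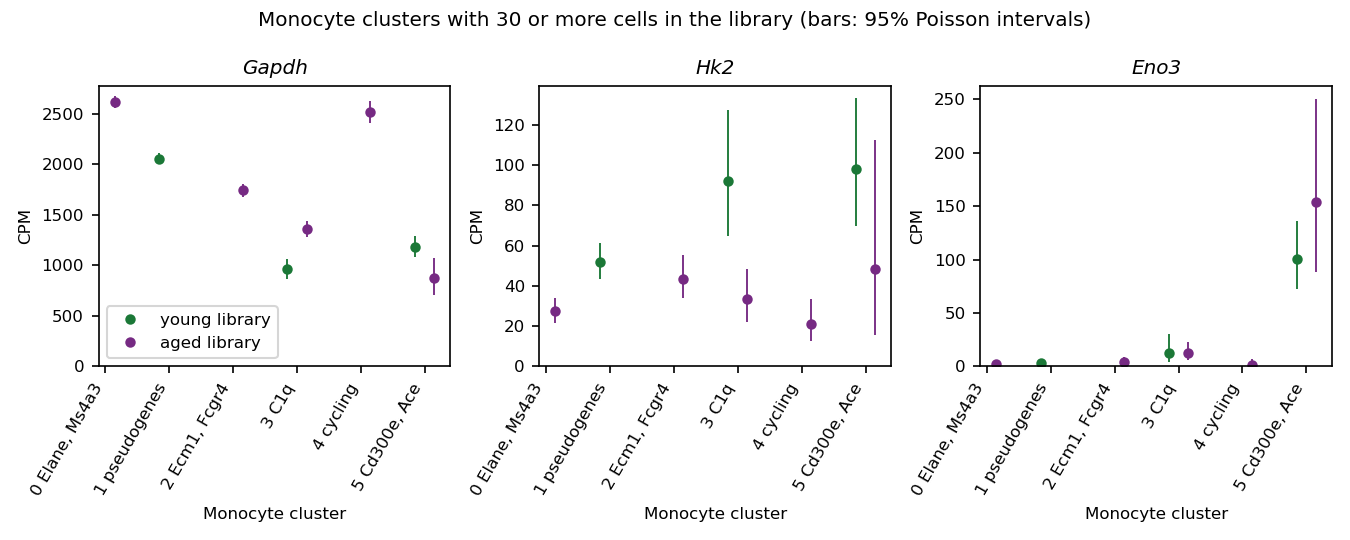
CPM of Gapdh, Hk2 and Eno3 in monocyte clusters with at least 30 cells of the library (points, young and aged; bars 95% Poisson intervals). Eno3 stands out in the cluster led by Cd300e and Ace at 100.3 and 154 CPM, Hk2 is lower in the aged cells of both shared clusters, and Gapdh is highest in aged cells of the Elane and cycling clusters.

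Among aged monocytes, Gapdh ranged over clusters from 876 (705 to 1076) CPM in the Cd300e cluster to 2520 (2415 to 2629) CPM in the cluster led by the cell cycle genes Cdc20 and Ccnb1 and 2620 (2563 to 2678) CPM in the Elane cluster. Tpi1 was 328 (290 to 368) CPM in the cycling cluster, 230 (214 to 248) in the Elane cluster and 133 (109 to 161) in the C1qa cluster. Ddit4 had the reverse order, at 29.3 (18.9 to 43.2) CPM in the cycling cluster, 30.3 (24.4 to 37.2) in the Elane cluster, 107 (86.1 to 132) in the C1qa cluster and 212 (133 to 321) in the Cd300e cluster. Among aged neutrophils, Slc2a1 had 46.9 (39.2 to 55.7) CPM in the Camp cluster and 69.1 (58.6 to 80.9) in the Ccl4 cluster, with intervals apart. Slc2a3 had 155 (141 to 170) and 143 (128 to 160) CPM, with intervals that overlapped.

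Further genes around the pathway were taken from lists of related genes, and their counts stand against the same backgrounds: over all genes in neutrophils 24.8% were lower and 5.78% higher in the aged library (693 and 833 of 6522 genes with TMM), and in monocytes 11.2% and 7.44%. In neutrophils 4 of 7 other glycolysis genes measured were lower in the aged library and 0 higher. Of 8 genes for pyruvate and lactate handling 0 passed 1.5-fold. Lower were also 2 of 7 pentose phosphate genes, 1 of 11 glycogen genes, 2 of 13 HIF pathway regulators (1 higher) and 4 of 26 other hypoxia genes (1 higher). Over the 6 lists 13 genes were lower and 2 higher in aged neutrophils, and 6 were lower and 7 higher with TMM scaling. In monocytes 3 of 16 other glycolysis genes were lower, 1 of 14 pyruvate and lactate genes was lower, 1 of 11 pentose phosphate genes was higher, 0 of 13 glycogen genes passed, 1 of 17 HIF regulators was higher, and of 29 other hypoxia genes 2 were higher and 1 lower.

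The genes named next were among the 4 of their list with the interval bound farthest from 1. Egln3, a HIF prolyl hydroxylase and itself a HIF target, had 12.3 and 4.93 CPM in young and aged neutrophils, a ratio of 0.399 (0.223 to 0.717). Cxcr4, the receptor that holds neutrophils in the marrow, had 76.5 and 39.0 CPM, a ratio of 0.511 (0.413 to 0.632). Rpia, a pentose phosphate isomerase, had 12.8 and 5.11 CPM, a ratio of 0.398 (0.225 to 0.707). Mpc1, a subunit of the mitochondrial pyruvate carrier, had 301 and 205 CPM in neutrophils, a ratio of 0.678 (0.614 to 0.750), and 225 and 303 CPM in monocytes, a ratio of 1.35 (1.24 to 1.47). Prps1, which makes the ribose donor for nucleotides, had 9.93 and 22.0 CPM in monocytes, a ratio of 2.22 (1.53 to 3.29). Bpgm, the bisphosphoglycerate mutase best known from red cells, had 13.8 and 7.49 CPM in monocytes, a ratio of 0.543 (0.358 to 0.823), and it moved with the summed erythroid genes given above, whose part in it was not tested.

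Between cell types, 3 of 13 glycogen genes were at least 2-fold higher in neutrophils in both libraries and 3 lower, beside 7.13% and 50.4% over all genes (1774 and 2105 of 9554 genes with TMM). Pygl, the glycogen phosphorylase of liver and leukocytes, had 344 and 340 CPM in young and aged neutrophils against 107 and 94.6 CPM in monocytes, ratios of 3.22 and 3.59. The glycogen-targeting phosphatase subunits Ppp1r3d (ratios of 6.54 and 6.64) and Ppp1r3b (7.75 and 6.01) were the others, Ppp1r3b from 6 and 14 monocyte UMIs. Adpgk, an ADP-dependent glucokinase, was 3.43-fold and 5.06-fold higher in neutrophils; it was the 1 of 16 other glycolysis genes that passed in that direction, and 9 were lower. Lower were also 9 of 14 pyruvate and lactate genes (0 higher), 6 of 11 pentose phosphate genes (0 higher), 5 of 17 HIF pathway regulators (0 higher) and 9 of 30 other hypoxia genes (1 higher). Beside the background of 50.4%, nothing is read from these shares.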

How the data were processed

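The authors deposited a table of raw UMI counts per gene and cell, with a library and a population label for each cell. Cell Ranger 2.1.1 and mm10 are named per the submitters' processing notes; how cells and genes were filtered is not given in the sources used here. Every cell passed minimums of 200 genes and 500 UMIs and a mitochondrial maximum of 10%. The cells with the highest scrublet scores were removed (27 young and 124 aged, a rate of 8 per 1000 cells for each 1000 cells). Counts were summed by label and library and divided by that sum (CPM). Ratios have exact conditional binomial intervals, levels exact Poisson intervals and shares Clopper-Pearson intervals, all at 95%; they cover counting error only. Between ages, genes needed 20 UMIs in a label and a UMI in both libraries. Between labels, they needed 20 UMIs in at least 1 of the 2 labels, and for calls counts under 3 were set to 3. Calls were 1.5-fold between ages and 2-fold in both libraries between labels. Clusters used scanpy 1.11.5 (2000 variable genes, 30 components, 15 neighbours, Leiden resolution 0.5). TMM factors came from edgeR 4.0.16. The ratio code was tested on simulated data. Genes are given in full where they passed a call, were among the 5 most abundant of a label or were isoenzymes, and from each other list at most 4 with the interval farthest from 1. The 31 genes, the lists and the rules were chosen with earlier results of these data known. Gene positions are from GENCODE M21 (GRCm38) and promoter windows from RefSeq (GRCm38.p6). Totals were 6440664 young and 13752454 aged UMIs.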

Additional observations from a re-analysis of the deposited data

Results flagged for a closer look

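Tpi1 and Aldoa had counting intervals on opposite sides of 1 in the cell types. The aged over young ratio of Tpi1 was 0.718 (0.548 to 0.945) in neutrophils and 1.55 (1.40 to 1.71) in monocytes. That of Aldoa was 0.848 (0.781 to 0.921) in neutrophils and 1.21 (1.15 to 1.27) in monocytes. Each age is 1 library, and the difference was not tested. With TMM scaling the neutrophil ratios were 0.891 (0.681 to 1.17) for Tpi1 and 1.05 (0.970 to 1.14) for Aldoa, so the opposite directions were not seen on that scale for Aldoa, and both intervals held 1.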

How the results depend on the processing

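No paired analysis was possible because each age is 1 library. Of 362 alternatives to 29 aged over young ratios of single genes, 351 moved by less than the counting interval, 10 moved and 1 changed direction (Pfkl in monocytes, log2 ratio 0.61 and -0.37 with cells thinned to 500 UMIs). Ratios between cell types are outside that count: Pfkfb3, Pfkfb4 and, in young cells, Slc16a3 (0.977) changed direction per cell and young Pfkp with centring, among the 16 genes that passed 2-fold. Thinning also left 18 genes with enough UMIs in monocytes, put the aged monocyte Hk2 share at 38.7%, and gave 0 of the 31 genes lower there, with 11 higher and 2 lower genes of the other lists. Aged neutrophils had 5 of the 31 genes higher, 4 lower and a median log2 ratio of -0.05; without the 20 most abundant genes, with TMM and with centring there was 1 lower each time, with medians of 0.19, 0.27 and 0.21. There were 3 higher with 500 genes and 1000 UMIs per cell, and 2 higher and 1 lower at 2-fold. Monocytes had 7 higher and 2 lower, with 4 higher when ribosomal and mitochondrial genes were left out of the total, 1 higher and 1 lower at 2-fold, and 1 lower without the Cd300e cluster, an alternative chosen after seeing the data. Between cell types, 5 were higher and 11 lower in neutrophils; there were 3 higher without ribosomal and mitochondrial genes, 8 higher at 1.5-fold, 9 higher and 5 lower without the top 20 genes, 9 and 3 with TMM, 11 and 3 with centring, and 1 and 23 per cell. Of the other lists, 2 genes were higher and 13 lower in aged neutrophils. The higher count was 4 without doublet removal and from a shared lowest depth, 0 and 7 with minimums of 50 and 10 UMIs, 1 without ribosomal genes, at 2-fold and by means over cells, and 6, 7 and 6 without the top 20, with TMM and with centring. The lower count was 8 with 50 UMIs, 8, 6 and 7 in those 3 scalings, and 4 at 2-fold. In monocytes 4 were higher and 5 lower, with 2 and 1 at 50 UMIs and at 2-fold, and 3 lower by means over cells. Eno3 in young cells of the Cd300e cluster was 100.3 CPM and 181 CPM at Leiden resolution 1. The cause of these moves was not tested. Depth limits the rarer genes: a gene with under 20 UMIs in a label was not compared between ages, and between cell types it needed 20 UMIs in at least 1 label.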
